A study of Homo sapiens with 4 samples.

Results

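FLT3, PAN3 and FLT1 lie next to each other on chromosome 13, and the H3K27Ac peaks over these 3 genes were described in the MOLM13 line, from human acute myeloid leukaemia (AML), which carries an MLL-AF9 fusion and an internal tandem duplication in FLT3. The members were chosen by name and position: the 3 gene bodies with 50 kb either side, a region of 592 kb at chr13:27953274-28545128 (GRCh38). In it lay 86 of the 86207 peaks of cells treated with 500 nM of the Menin inhibitor SNDX-50469 together with 500 nM of the BET protein inhibitor OTX015 for 16 h (the combination), and 42 of the 55852 peaks of cells treated with 500 nM OTX015 alone for 16 h. The 3 members are 3 of 19609 protein-coding genes measured in the same way. Each treatment had 1 H3K27Ac ChIP library, so no test between the treatments was possible and values are given side by side. The input libraries, untreated cells and cells given SNDX-50469 alone were not analysed here, so no value says what OTX015 or the combination changed from the untreated state.

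FLT3 encodes a class III receptor tyrosine kinase of blood progenitors, which binds FLT3 ligand and signals through STAT5, PI3K and MAP kinases, and its activating mutations drive a large share of AML. PAN3 encodes the adaptor subunit of the PAN2-PAN3 nuclease that begins shortening of mRNA poly(A) tails. FLT1 encodes VEGF receptor 1, a class V receptor tyrosine kinase best known from endothelium and monocytes. H3K27Ac is an acetyl mark that histone acetyltransferases place on the nucleosomes of active promoters and enhancers. BET proteins bind acetylated histones, and Menin tethers MLL1 and its fusion proteins to chromatin at target genes such as HOXA9 and MEIS1, which are known to control FLT3.

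FLT3 (gene ID 2322) occupies chr13:28003274-28100576 on the minus strand, so that its 5' end is its right-hand end. PAN3 (gene ID 255967) occupies chr13:28138193-28295335 on the plus strand, and FLT1 (gene ID 2321) chr13:28300346-28495128 on the minus strand. The 5' ends of FLT3 and PAN3 therefore face each other across 37.6 kb that hold no other protein-coding gene, and the 3' ends of PAN3 and FLT1 meet across 5.01 kb. The 250 bases upstream of each start in the RefSeq promoter table (GRCh38.p14) are shown because 2 of these starts lay wholly under a peak in both libraries and the other lay under none. Capitals mark matches on either strand to a GC box with the letters GGGCGG, to the box of the letters CCAAT, to the core of a PU.1 site spelled GAGGAA, to a composite site of HOX and TALE factors spelled TGATTNAT, and to a MYB site spelled AACNGTT.
FLT3, chr13:28100577-28100826, minus strand: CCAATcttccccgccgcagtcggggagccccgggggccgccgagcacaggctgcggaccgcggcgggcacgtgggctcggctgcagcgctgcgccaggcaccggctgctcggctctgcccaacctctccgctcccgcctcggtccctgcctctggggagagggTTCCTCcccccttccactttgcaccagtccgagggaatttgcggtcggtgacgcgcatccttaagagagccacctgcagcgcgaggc
PAN3, chr13:28138295-28138544, plus strand: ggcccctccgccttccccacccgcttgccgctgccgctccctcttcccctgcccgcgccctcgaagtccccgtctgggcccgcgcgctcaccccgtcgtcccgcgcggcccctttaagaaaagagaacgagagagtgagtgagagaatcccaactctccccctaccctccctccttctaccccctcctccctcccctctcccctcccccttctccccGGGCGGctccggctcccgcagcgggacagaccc
FLT1, chr13:28495129-28495378, minus strand: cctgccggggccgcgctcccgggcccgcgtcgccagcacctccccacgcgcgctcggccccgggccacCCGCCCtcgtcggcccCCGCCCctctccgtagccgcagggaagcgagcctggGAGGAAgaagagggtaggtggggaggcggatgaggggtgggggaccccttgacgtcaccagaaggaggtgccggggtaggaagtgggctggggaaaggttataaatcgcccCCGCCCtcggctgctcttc

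All 3 stretches were rich in CpG, with 26 CpG dinucleotides upstream of FLT3, 22 upstream of PAN3 and 25 upstream of FLT1, against a median of 17 over 11785 promoters of the same length. The stretch upstream of FLT3 held 1 CCAAT, which 35.4% of all promoters hold, and 1 GAGGAA, which 23.3% hold. That upstream of PAN3 held 1 GC box, and that upstream of FLT1 held 3, against 56.5% of promoters with at least 1. No stretch held TGATTNAT (1.93% of promoters) or AACNGTT (2.48%). Of 2 further motifs not put in capitals, TATAAA (10.2% of promoters) had 1 match upstream of FLT1 and none upstream of FLT3 or PAN3, and the E-box CANNTG (58.0%) had 2 upstream of FLT3 and none upstream of the others. CpG content thus did not set FLT1, with no peak at its start, apart from FLT3 and PAN3, while it had the most GC boxes and the only TATAAA. The PAN3 start of this table, at chr13:28138545, lies inside the gene record, whose outer end is used as the 5' end below.

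Peak strength is given on 2 scales. The deposited fold enrichment is the mean over a peak of fragment pileup against background, each with 1 added, and the lowest peak of a list had a fold of 3.24 with the combination and 3.40 with OTX015. Solving these lowest values for a uniform background gave a pileup of 1.47 fragments per base with the combination and 0.764 with OTX015, a ratio of 1.92. This ratio of backgrounds stands for depth here and is not a count of fragments. A peak's mean pileup divided by that background, called its enrichment here, could not be below 4.76 with the combination or 6.54 with OTX015. Weaker acetylation could therefore be listed with the combination than with OTX015. Of the 86 region peaks with the combination only 4 had an enrichment at or above the lowest value an OTX015 peak could have.

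The FLT3 5' end lay under a broad peak in both libraries. With the combination this peak spanned chr13:28099706-28101833 (2128 bp, fold 3.71, −log10 q 1.94), and with OTX015 chr13:28099168-28101742 (2575 bp, fold 4.05, −log10 q just under 2). The peaks shared 2037 bp. Their outer edges, upstream of the gene, differed little, and the OTX015 peak reached farther into the gene. Enrichment was 5.56 with the combination (95% Poisson interval 4.75 to 6.48) and 8.05 with OTX015 (6.78 to 9.48), where the interval covers counting error only and takes the shortest peak of each list (105 and 111 bp) as the fragment length. The ratio of 0.691 should be read against the other peaks that overlapped between the lists: the median ratio over 16 such OTX015 peaks of the region was 0.738, that over 68 of the surrounding 10 Mb was 0.724, and the ratio of the lowest possible values was 0.728.

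**Figure D1:**
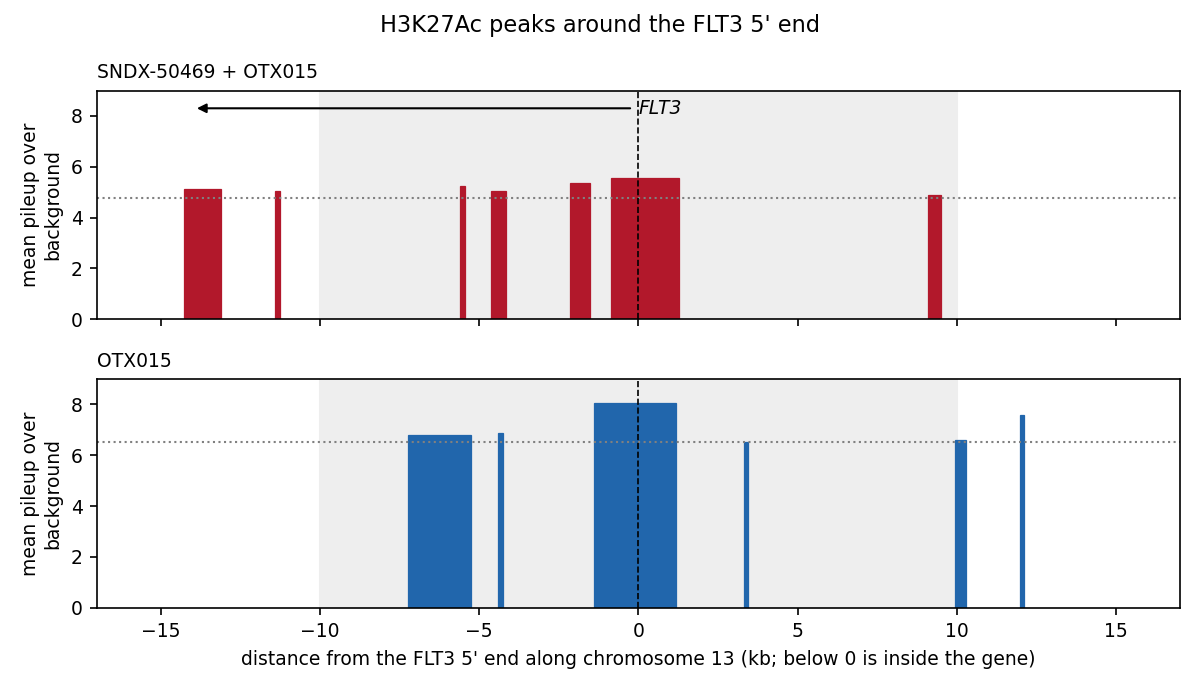
Peaks around the FLT3 5' end, with the combination above and OTX015 below. The x axis is the distance from the 5' end in kb (below 0 is inside the gene), the width of a box is the peak's width, its height is mean pileup over background, the dotted line is the lowest value a listed peak could have, and grey marks 10 kb either side. Both libraries have a broad peak over the 5' end (2128 bp and 2575 bp), and the 1958 bp box at the left of the OTX015 panel faces a 161 bp box in the combination panel.

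Inside the gene but within 10 kb of the 5' end, the libraries differed most at chr13:28093353-28095310. OTX015 had a 1958 bp peak there, 6.25 kb into the gene (fold 3.52), of which the combination covered 161 bp (chr13:28094957-28095117, fold 3.53). A short OTX015 peak at chr13:28096178-28096322 (145 bp) lay within a 471 bp peak of the combination. The combination alone had a 602 bp peak at chr13:28098437-28099038, which ended 130 bp before the OTX015 5' peak, and a 396 bp peak 9.30 kb upstream. OTX015 alone had a 135 bp peak 3.37 kb upstream. No peak of this window had a −log10 q of 2 in either library.

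Cover, the number of bases under peaks, came to 3.76 kb within 10 kb of the FLT3 5' end with the combination and 4.87 kb with OTX015, a difference of −1.11 kb. Of these bases 2.34 kb were the same. The lower cover rested on the peak inside the gene: within 5 kb of the 5' end cover was 3.20 kb with the combination and 2.86 kb with OTX015, and within 2 kb it was 2.59 kb and 2.58 kb. The direction therefore depended on the width of the window. Lower cover with the combination was common over the genome as a whole, at 38.8% of the 9275 protein-coding genes with peak cover within 10 kb of the 5' end in either library. Among the 47 such genes of the surrounding 10 Mb it was found at 29.8%. Of the 3 members only FLT3 had it. By size the FLT3 difference stood lower than most: 342 of 19609 genes had one at or below it. All of these are among the 9275 genes with cover, whose median was 0.146 kb. The difference was not scaled by cover, and only 287 genes had at least the OTX015 cover of FLT3.

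The rest of the FLT3 body, 87.3 kb, showed the opposite. It held 21 peaks and 8.59 kb of cover with the combination and 9 peaks and 2.74 kb with OTX015, 3.14 times as much. Exons and introns could not be assigned on GRCh38 here, so these peaks are called gene-body peaks. The strongest with the combination, at chr13:28048323-28048849 (527 bp), lay 52.0 kb into the gene with a fold of 4.43 and a −log10 q of 3.02, and the nearest OTX015 peak was 5343 bp away. Its enrichment of 6.76 was above that of the peak over the FLT3 5' end in the same library. A wider peak followed it at chr13:28049638-28050741 (1104 bp, fold 3.41), and another stood 13.7 kb into the gene at chr13:28086301-28087468 (1168 bp, fold 3.46). Neither was met by an OTX015 peak. The strongest OTX015 body peak was at chr13:28054192-28054355 (164 bp, fold 3.73), 46.3 kb into the gene.

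Of the body peaks, 6 of the 21 with the combination and 6 of the 9 with OTX015 overlapped a peak of the other library. They lay at chr13:28032869-28033030, chr13:28033811-28034370, chr13:28035858-28036499, chr13:28055808-28056158, chr13:28066465-28066918 and chr13:28071334-28071778 in the combination list. The remaining 15 combination peaks had no counterpart. That is usual, since in the surrounding 10 Mb only 10.6% of combination peaks and 17.3% of OTX015 peaks met the other list. In steps of 10 kb from the 5' end, the combination covered 2.11 kb of the first step and OTX015 3.51 kb. From 10 to 20 kb it was 1.35 kb with the combination and 0 with OTX015, from 50 to 60 kb 1.72 kb and 0, and from 60 to 70 kb, the step with most peaks in both libraries beyond the first 10 kb, 2.04 kb and 0.818 kb. In the step from 80 to 90 kb the order turned, with 0.251 kb with the combination and 0.589 kb with OTX015. The last 7.30 kb before the 3' end had no peak in either library.

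Most of these body peaks were weak. Widths ran from 121 to 1168 bp with the combination and from 139 to 589 bp with OTX015, and the median enrichment was 5.05 and 6.75. When the combination list was reduced to its 55852 strongest peaks, the number in the OTX015 list, the body kept 6.42 kb against 2.74 kb, and the 5' window 3.36 kb against 4.87 kb. When both lists were held to the same enrichment of at least 6.54, the body had 0.527 kb with the combination and 2.74 kb with OTX015, and the 5' window had none and 4.87 kb. Apart from the peak 52.0 kb into the gene, every body peak of the combination thus had an enrichment below the lowest that an OTX015 peak could have. The part of depth in the higher body cover was not tested.

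Across all protein-coding genes with cover in both parts, 19.6% had, like FLT3, less cover within 10 kb of the 5' end and more in the rest of the locus with the combination (10 kb flanks). More cover in the rest of the locus alone was found at 59.7% of genes with such cover, all 3 members among them. The size at FLT3 stood out more, with 8.82 kb with the combination and 3.03 kb with OTX015. A difference at least as large was found at 358 of 19609 genes, all of them among the 9321 with such cover. Gene length was not taken into account in that order, and the members are long genes (97.3 kb, 157 kb and 195 kb).

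**Figure D2:**
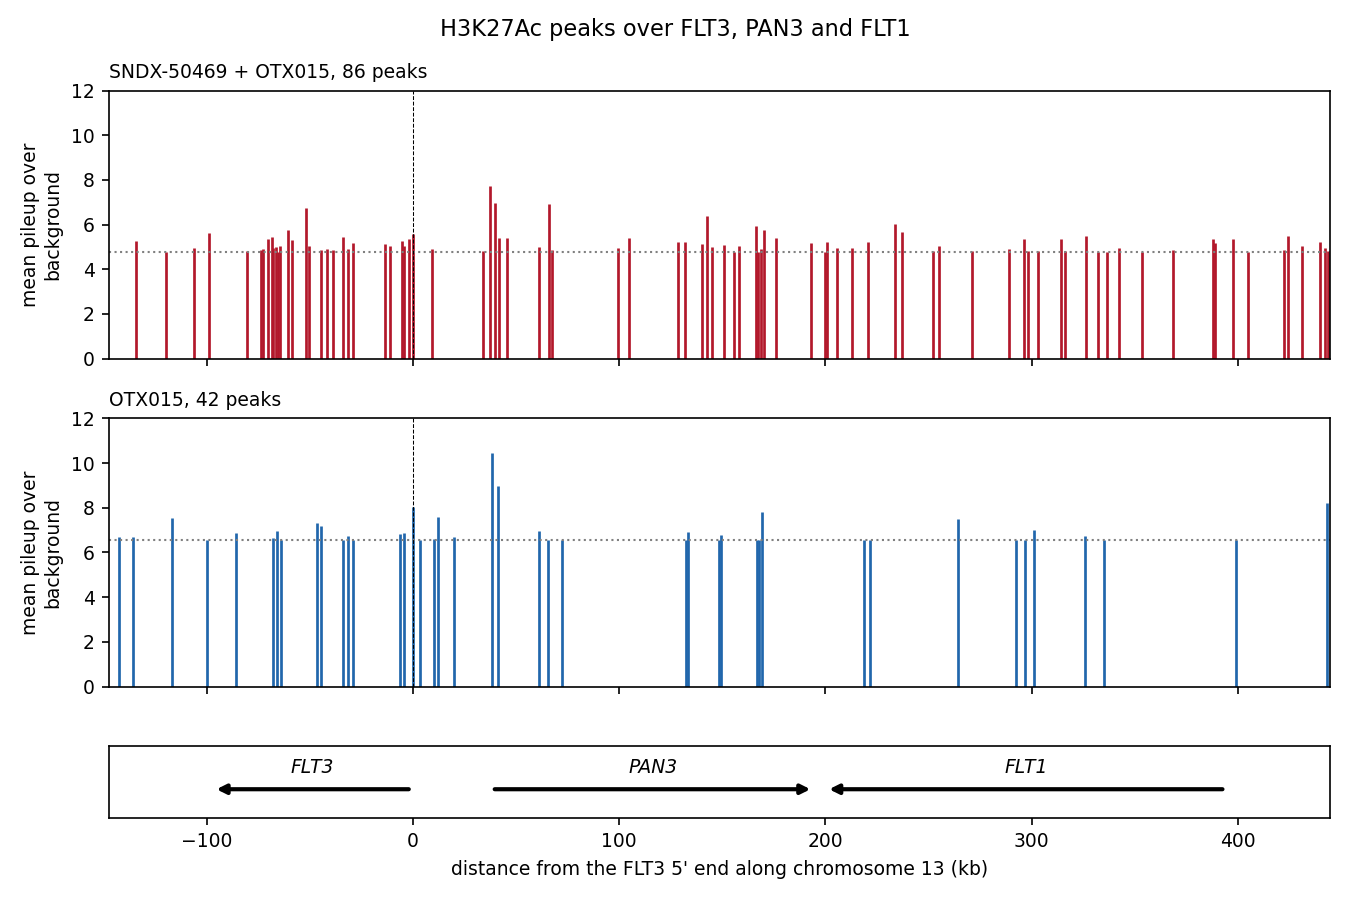
All peaks of the region by distance from the FLT3 5' end (x axis, kb), with the combination above and OTX015 below. Each line is a peak, its height is mean pileup over background, the dotted lines are the lowest listed values (4.76 and 6.54), and arrows give the genes and their direction. The tallest lines of both panels stand at the PAN3 5' end, about 38 kb to the right of 0, and FLT1 has low, scattered lines.

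PAN3 had the strongest acetylation of the region. With the combination its 5' end lay under a peak at chr13:28136841-28139277 (2437 bp, fold 5.00, −log10 q 4.37), followed inside the gene by chr13:28139804-28140570 (767 bp, fold 4.55) and chr13:28141734-28143089 (1356 bp, fold 3.62). With OTX015 a peak of 3666 bp spanned chr13:28137257-28140922 (fold 5.10, −log10 q 3.68), and 181 bp at chr13:28141847-28142027 followed (fold 4.45). The OTX015 peak thus ran through the 526 bases that separated the first pair of combination peaks. Enrichment of the main peak was 7.73 with the combination (6.82 to 8.72) and 10.5 with OTX015 (9.24 to 11.8), a ratio of 0.738, at the median of the region. The noncoding gene PAN3-AS1 (chr13:28136843-28139174) starts from the same stretch, and its acetylation and that of PAN3 cannot be told apart.

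Cover within 10 kb of the PAN3 5' end was 5.04 kb with the combination and 3.85 kb with OTX015. The order of the 5' windows of FLT3 and PAN3 therefore differed between the libraries: PAN3 had the larger cover with the combination and FLT3 with OTX015. In both libraries the main PAN3 peak was stronger than the peak over the FLT3 5' end, and their counting intervals did not meet with the combination (6.82 to 8.72 at PAN3, 4.75 to 6.48 at FLT3). With OTX015 they met narrowly (9.24 to 11.8 and 6.78 to 9.48). Among peaks with a −log10 q of at least 2, PAN3 had 3.20 kb with the combination and 3.85 kb with OTX015, the opposite order.

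In the rest of the PAN3 body the combination had 19 peaks over 8.05 kb and OTX015 had 10 over 3.72 kb. Here 6 and 5 peaks overlapped between the lists. The clearest shared site was chr13:28161369-28162088 with the combination, which lay wholly within the OTX015 peak chr13:28161305-28162189. A peak at chr13:28166091-28166705 was the strongest of this part with the combination (fold 4.51, enrichment 6.90), and the OTX015 peak it overlapped by 70 bp was at that list's lowest value, 6.54. This was the only one of the 16 overlapping pairs whose enrichment was higher with the combination. Near the 3' part, 170 kb from the FLT3 5' end, a combination peak of 1558 bp (chr13:28269982-28271539, fold 3.83) overlapped an OTX015 peak of 1005 bp (chr13:28269438-28270442, fold 3.95) over 461 bp. A 108 bp peak with a fold of 4.20 at chr13:28243273-28243380 was listed only with the combination.

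At FLT1 no peak of either library came nearer than 1 kb to the 5' end. Its 5' window held 3 short combination peaks, at chr13:28488529-28488705, chr13:28489495-28489715 and chr13:28498259-28498370, which together covered 0.510 kb. OTX015 had 1 peak there, chr13:28499345-28499837, with 0.493 kb, and no base was shared. In the rest of the body the combination had 21 peaks over 6.65 kb and OTX015 8 over 2.15 kb, again with no base in common. The widest was 644 bp with the combination and 666 bp with OTX015, and the strongest had folds of 3.98 (chr13:28334109-28334228) and 3.81 (chr13:28364872-28364991). Body cover was 3.60% with the combination, against 2.67% in the surrounding 10 Mb, and 1.16% with OTX015, against 1.74%. Cover of the FLT1 body was thus above its surroundings with the combination and below them with OTX015, while that of its 5' window (2.55% and 2.46%) had the opposite order, at 0.956 and 1.42 times the surroundings. None of the FLT1 peaks met a peak of the other library, but few peaks did so in the surrounding 10 Mb either. There it was 10.6% with the combination and 17.3% with OTX015.

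Peaks between and beyond the genes were few. The 17.6 kb between the 5' windows of FLT3 and PAN3 held no combination peak and 3 OTX015 peaks of 117 to 337 bp, 0.726 kb in all. The interval between PAN3 and FLT1 held 1 combination peak centre, and that peak reached into the FLT1 3' end. The flank beyond the FLT3 3' end, with the genes CDX2 (an intestinal homeobox factor that some AML cells express) and URAD (an enzyme of urate breakdown), held 4 peaks in each library, 0.912 kb with the combination and 1.098 kb with OTX015, none of them shared. The 5' ends of CDX2 and URAD had none within 1 kb. The flank beyond the FLT1 5' end held 7 combination peaks over 2.12 kb and 1 OTX015 peak of 139 bp.

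**Figure D3:**
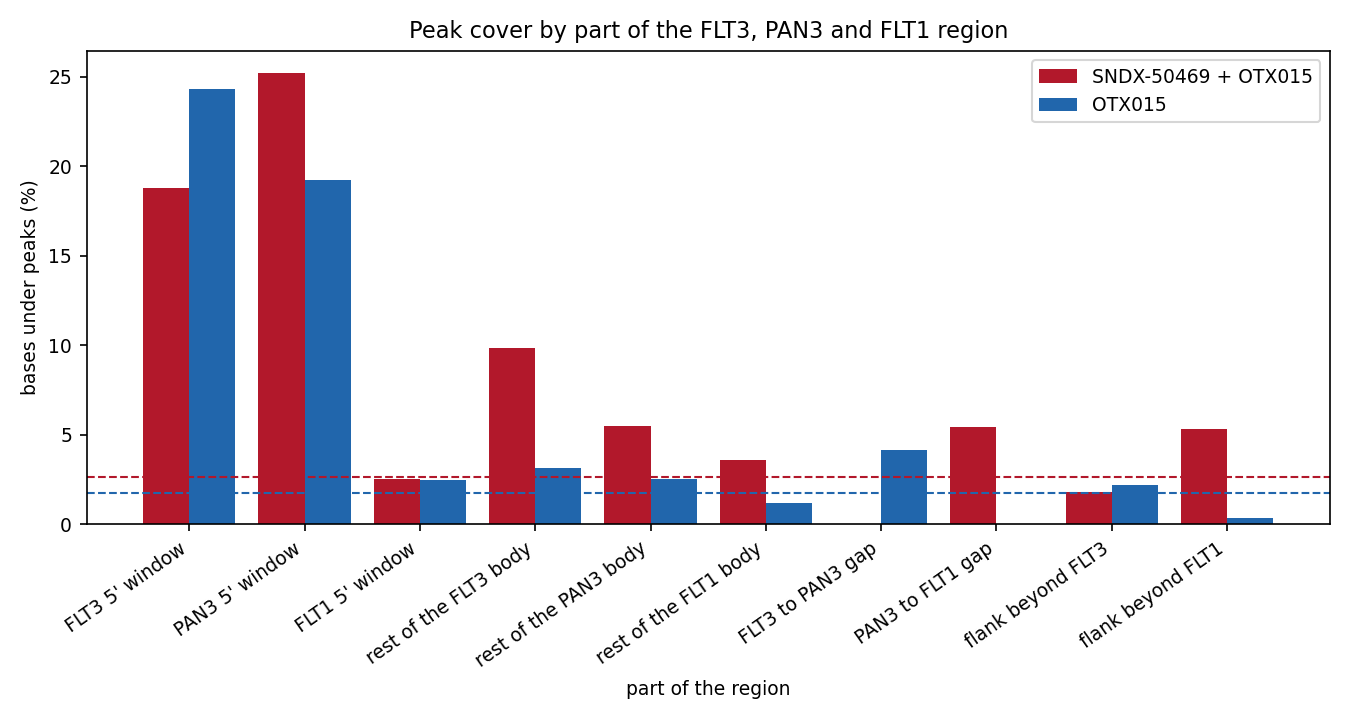
Percent of bases under peaks (y axis) in each part of the region (x axis), with the combination on the left of each pair and OTX015 on the right. Dashed lines are the surrounding 10 Mb without the region (2.67% with the combination, 1.74% with OTX015). The FLT3 5' window is the only one of the 3 with less cover with the combination (18.8% and 24.3%), and the rest of each gene body has more.

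Over the whole region cover was 35.9 kb with the combination and 19.8 kb with OTX015. Outside the FLT3 5' window it was 32.1 kb and 14.9 kb, a difference of 17.2 kb. The 10 Mb centred on the region, without it, had 251 kb under 601 peaks with the combination and 164 kb under 393 peaks with OTX015, a ratio of 1.53, while the ratio over all chromosomes was 1.71. The region was denser than these surroundings in both libraries, by 2.27 times with the combination and 1.92 times with OTX015. Without the 5' windows of the 3 genes these values were 1.87 and 1.14 times. Peaks with a −log10 q of at least 2 were 11.6% of the region's peaks with the combination and 9.15% of the surrounding ones, and 4.76% and 6.36% with OTX015.

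More of the region's peaks than of the surrounding ones met a peak of the other library. With the combination it was 18 of 86 peaks, 20.9% (95% Wilson interval 13.7 to 30.7), against 10.6% of the surrounding 601 (8.43 to 13.4). With OTX015 it was 16 of 42, 38.1% (25.0 to 53.2), against 17.3% of the surrounding 393 (13.9 to 21.4). Denser peaks also meet more often by position alone, and that part was not tested. Within the region every overlapping peak lay in FLT3 or PAN3 or their 5' windows.

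Set against 470 bins of 20 kb in the surrounding 10 Mb, the FLT3 5' window was among the most covered. Only 3 bins had at least its OTX015 cover, and 9 at least its cover with the combination. For PAN3 these counts were 5 and 6, and for FLT1 94 and 129. Of the 359 bins with cover, 217 had more with the combination and 142 less, and 6 had a difference at or below that of the FLT3 window. The bins lie on a fixed grid while the 5' windows are centred on gene starts, so they are not like for like. Among the 5' windows of the 54 other genes there, those of FRY (7.83 kb and 7.12 kb) and ALOX5AP (9.37 kb and 6.46 kb) alone had more than FLT3 in either library. FLT3 thus stood with the few highly covered sites of its neighbourhood in both libraries but below the line of equal cover.

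**Figure D4:**
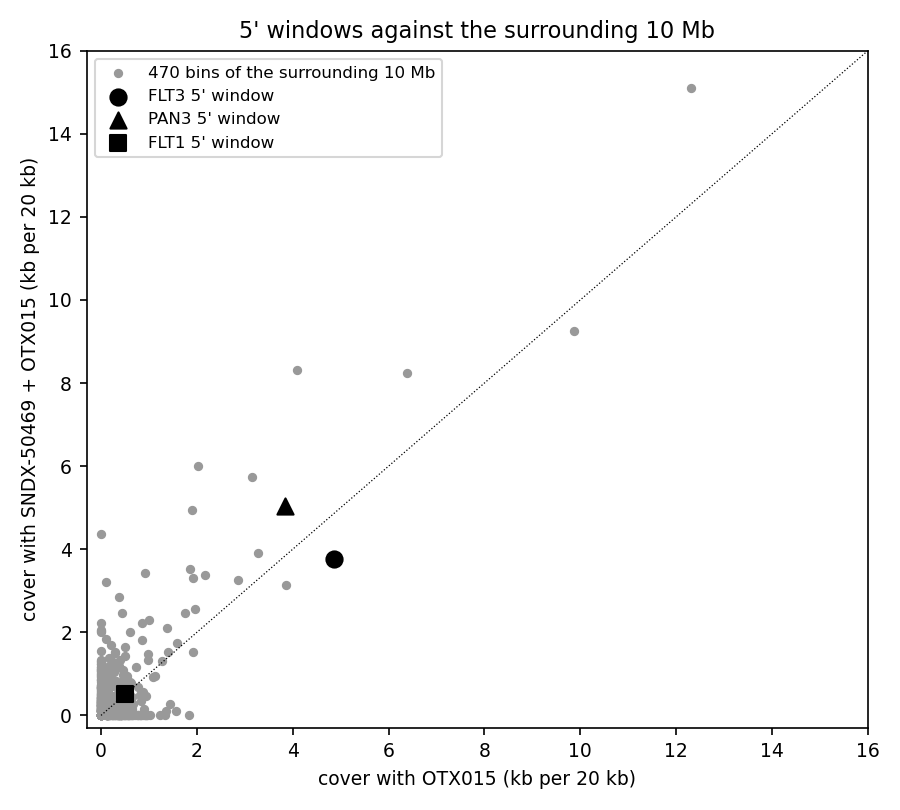
Cover per 20 kb with OTX015 (x axis, kb) and with the combination (y axis, kb), for 470 bins of the surrounding 10 Mb (grey) and the 5' windows of the 3 members (black). The dotted line is equal cover. FLT3 lies below it (3.76 kb with the combination, 4.87 kb with OTX015), PAN3 above it (5.04 kb and 3.85 kb), and FLT1 near the origin.

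Other genes of the surrounding 10 Mb give the scale of these differences. The largest difference upwards in 5' window cover with the combination was at ALOX5AP, the activating protein of 5-lipoxygenase in leukotriene synthesis of myeloid cells, with 9.37 kb with the combination and 6.46 kb with OTX015. BRCA2 and ZAR1L, whose 5' ends share their windows, had 3.51 kb and 1.86 kb, and RPL21, a ribosomal protein gene, 2.01 kb and 0.60 kb. The largest downwards besides FLT3 was at N4BP2L1, with 3.47 kb with the combination and 4.53 kb with OTX015. It was followed by B3GLCT, a glucosyltransferase, with 0 and 0.909 kb, KL, the Klotho co-receptor, with 0 and 0.669 kb, and AMER2 with 0 and 0.505 kb. None of the 54 other genes had a difference below that of FLT3. The median difference over the 47 with cover was 0.343 kb.

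Genes of the receptors' own pathways were read in the same window. Over all protein-coding genes, 9275 of 19609 had cover there in either library. Among 8 class III and V receptor tyrosine kinases, FLT3 alone had over 1 kb of 5' window cover in either library. FLT1 followed, CSF1R (the M-CSF receptor) had 0.255 kb with the combination and 0.267 kb with OTX015, and PDGFRB had 0.172 kb and 0. KIT, PDGFRA, KDR and FLT4 had none. Cover was lower with the combination at 2 of the 4 with any (50%, against 38.8% over all genes with cover), and their median difference was 0.0025 kb, against 0.146 kb over all genes. Of 13 ligands 6 had cover, 2 lower (33.3%, near the 38.8% of all genes) and 4 higher, with a median of 0.380 kb. VEGFA, a ligand of FLT1, led them with 5.02 kb with the combination and 2.36 kb with OTX015, and FLT3LG, the FLT3 ligand, had 1.12 kb and 0.477 kb. IL34 had 0.624 kb and 0, VEGFC 0.136 kb and 0, PDGFD 0 and 0.115 kb, and PGF 0 and 0.151 kb.

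The deadenylation list around PAN3 held 13 of 19 genes with cover, PAN3 among them, 3 lower (23.1%, against 38.8% of all genes) and 10 higher with the combination, with a median difference of 0.50 kb. CNOT6L, a deadenylase of the CCR4-NOT complex, had 1.29 kb with the combination and 6.11 kb with OTX015. PABPC1, the main cytoplasmic poly(A)-binding protein, had 6.43 kb and 2.66 kb, and CNOT7, another CCR4-NOT nuclease, 3.43 kb and 0.647 kb. Both PABPC1 and CNOT7 lie on chromosome 8. PAN3 was the next by size. Of 20 genes of FLT3 signalling 18 had cover, 7 lower and 11 higher, with a median of 0.133 kb. The lower share, 38.9%, and the median were close to those of all genes (38.8% and 0.146 kb). LYN, a Src family kinase also on chromosome 8, had 15.7 kb with the combination and 8.999 kb with OTX015. CISH, a STAT5 target that restrains cytokine signalling, had 3.48 kb and 5.72 kb, SYK 1.74 kb and 0.644 kb, and SOCS3 0.540 kb and 0.

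Factors that bind or control FLT3 divided. HOXA9 had 2.33 kb with the combination and 6.12 kb with OTX015, MEIS1 none and 5.90 kb, PBX3 0.821 kb and 2.92 kb, and MYB 7.99 kb and 9.85 kb. CEBPA had 4.10 kb and 3.45 kb, SPI1 (PU.1) 5.04 kb and 4.003 kb, and RUNX1 0.323 kb and 0.181 kb. PAX5 and MEF2C had none in the window. The window misses much of the cover at some of these genes. In the rest of the locus (10 kb flanks) MEF2C had 2.19 kb with the combination and 6.83 kb with OTX015, and RUNX1 15.0 kb and 12.3 kb. There the order turned at SPI1 (4.48 kb and 6.315 kb) and MYB (6.26 kb and 2.61 kb). It held at MEIS1, PBX3, CEBPA and RUNX1, and HOXA9 had no such cover. Of the 7 with cover in the 5' window 4 were lower there with the combination (57.1%, against 38.8% of all genes) and 3 higher, with a median of −1.86 kb. The list was chosen with earlier results of these data known, so its direction is a description.

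**Figure D5:**
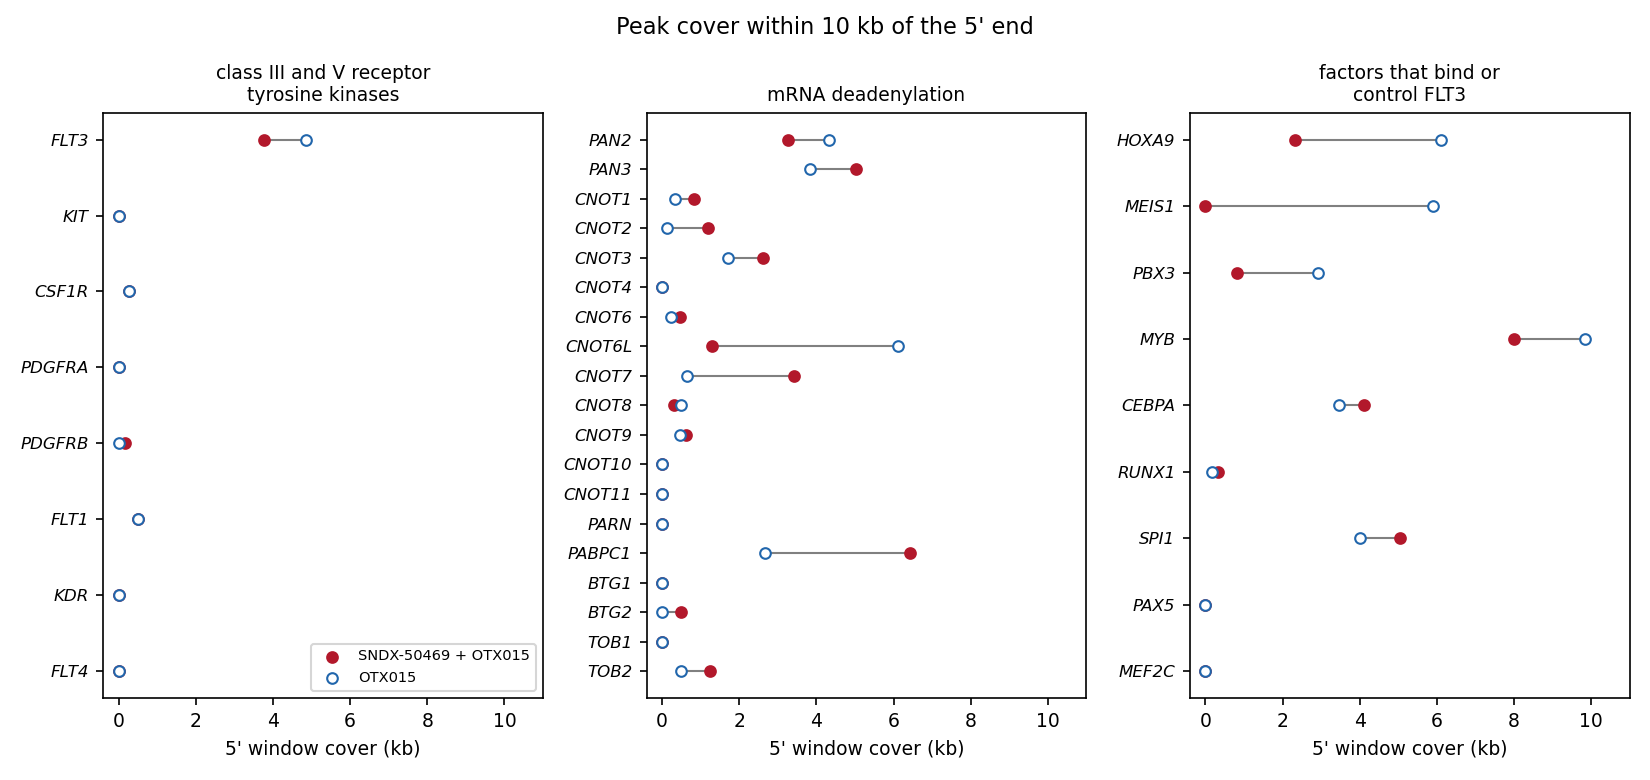
Cover within 10 kb of the 5' end (x axis, kb) for 3 gene lists (y axis, genes), with filled points for the combination, open points for OTX015 and a line joining them. FLT3 is the only receptor with over 1 kb, PAN3 and PABPC1 lie to the right with the combination, and HOXA9, MEIS1, PBX3 and MYB lie to the left of their OTX015 points.

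Marker genes were read in the same window to check the labelled cell type. All 10 myeloid markers had 5' window cover in at least 1 library, with sums of 44.5 kb with the combination and 28.8 kb with OTX015, 2 lower (20%, against 38.8% of all genes) and 8 higher. LYN supplied 15.7 kb and 8.999 kb of these sums. Those differing most were LYN, MPO (9.92 kb and 5.61 kb), CEBPE (3.48 kb and 0) and CD68 (2.38 kb and 4.21 kb). Among the markers of other cells 6 had cover: CD79A of B cells (3.58 kb and 2.54 kb), EPOR (2.66 kb and 0) and KLF1 (0.551 kb and 0.499 kb) of erythroid cells, GFAP of astrocytes (0.957 kb and 0), and CD3D (0.333 kb and 0.582 kb) and CD4 (0.264 kb and 0.279 kb) of T cells. CD3E, CD8A, CD2, MS4A1, PAX5, GATA1, HBB, ALB, EPCAM and KRT19 had none. Cover of any size counts here, and 9275 of 19609 protein-coding genes had some in either library. With the combination, the myeloid markers CD33 (0.320 kb), ITGAM (0.289 kb) and CSF1R (0.255 kb) had less in this window than CD79A, EPOR, KLF1 and GFAP. In the rest of the locus (10 kb flanks) CSF1R had 3.47 kb with the combination, CD33 2.19 kb and ITGAM none. CD79A had 1.415 kb there, EPOR 0.144 kb, and KLF1 and GFAP none.

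The genes on other chromosomes most like FLT3 in 4 values (cover of the 5' window and of the rest of the locus in each library) were ADCK5, FKBP5, RANBP9, LY6S and HOOK3, at Euclidean distances of 1.02, 1.498, 1.75, 1.85 and 2.48 kb. LY6S and HOOK3 shared the lower 5' window cover with the combination: LY6S had 2.62 kb with the combination and 5.66 kb with OTX015, and HOOK3 4.68 kb and 4.88 kb. ADCK5, FKBP5 and RANBP9 had higher 5' window cover with the combination. ADCK5, LY6S and HOOK3 lie on chromosome 8, and FKBP5 and RANBP9 on chromosome 6. The part of the chromosome in this likeness was not tested. The likeness rests on 4 values from 2 libraries.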

How the data were processed

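H3K27Ac was profiled by ChIPmentation, a ChIP-seq method with Tn5 tagmentation, in MOLM13 cells. The submitters' processing notes name bcl2fastq 2.17, Trimmomatic 0.33, Bowtie 1.1.2, MACS2 2.1.0 and deepTools, with hg38 coordinates. For each ChIP library the authors deposited a list of broad peaks. Its score is a display value made by the peak caller from the q-value, the ratio is the mean fold of pileup over background, and p- and q-values are given as −log10, all as deposited. Per-base coverage and read depth are not in the peak lists, so depth was read from the background solved from the lowest peaks. The relations used were fold = (pileup + 1)/(background + 1) and p as the Poisson probability above the pileup. A uniform background, 1 value per list, was assumed. Fold and −log10 p did not keep the same order at every peak. The score was not used in a comparison.

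Gene bodies came from RefSeq (GRCh38.p14), and strand from its promoter table for 11785 genes and otherwise from GENCODE by symbol, which gave the same strand at 11244 of 11293 genes in both. In all 19609 of 20033 protein-coding genes had a strand. Cover was counted in bases within 10 kb of the outer 5' end. Each base of the region was given to the first of the 5' windows of FLT3, PAN3 and FLT1, the rest of their bodies, the intervals and the flanks, and each peak to the part of its centre. Named genes were the members, genes touching the region, the 4 genes with the largest differences each way in the surrounding 10 Mb, all members with cover of a list where these were 8 or fewer and otherwise the 4 with the largest differences, and the 5 genes most like FLT3. CD33, ITGAM and CSF1R were named as well, as myeloid markers of low cover. Members and lists were chosen with earlier results of these data known. A listed marker is not reported here. With 1 library per treatment no test was made. Alternatives were a −log10 q of at least 2, equal numbers of peaks, a common enrichment, merging within 1 kb, and other windows, flanks and overlap rules. Cover and background routines were tested on simulated data. Python 3.11.15 with numpy 2.4.6, pandas 2.3.3, scipy 1.17.1 and matplotlib 3.10.9 was used, and intervals are 95% Wilson intervals for shares and exact Poisson intervals for pileups.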

Additional observations from a re-analysis of the deposited data

How the results depend on the processing

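Cover within 10 kb of the FLT3 5' end differed by −1.11 kb (combination minus OTX015) and stayed negative with equal numbers of peaks (−1.51 kb), peaks merged within 1 kb (−0.489 kb), 20 kb either side (−0.485 kb) and a common enrichment (−4.87 kb). It was 0 with a −log10 q of at least 2, since no peak was left, and turned positive within 2 kb (0.016 kb) and 5 kb (0.346 kb), since both leave out the peak inside the gene. Cover of the region outside this window differed by 17.2 kb, and by 2.92 kb with a −log10 q of at least 2, 8.44 kb with equal numbers of peaks and −10.6 kb at a common enrichment. The ratio of the surrounding 10 Mb was 1.53, and 0.0959 at a common enrichment, which leaves 5 of the 601 combination peaks there. Other alternatives left these 2 results within 1.5 times, among them 1.04 for the ratio with equal numbers of peaks.

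The share of region peaks met by the other list (20.9% with the combination, 38.1% with OTX015) was 75% (3 of 4 peaks) and 4.76% at a common enrichment. It was 9.30% and 21.4% where at least 50% of the peak had to be covered, and 10.5% and 21.4% where its centre had to be. The shares of the surrounding peaks were not counted under these rules. No paired analysis was possible because each treatment had 1 ChIP library. No library could be left out for the same reason. Depth limits the OTX015 list more than the combination list, since its lowest listed enrichment is higher, and the cause of the differences between settings was not tested beyond the counts given here.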

Other observations

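Some stretches of the surrounding 10 Mb had more cover than any member's 5' window in both libraries. A 20 kb bin within FRY, which encodes a large scaffold protein linked to the NDR kinases, had 15.1 kb with the combination and 12.3 kb with OTX015, and another bin of FRY had 9.25 kb and 9.86 kb. A bin of ALOX5AP had 8.24 kb and 6.39 kb. The next bin of ALOX5AP, with 8.32 kb and 4.10 kb, was above the FLT3 5' window (3.76 kb and 4.87 kb) with the combination only. Of the 54 other protein-coding genes of these 10 Mb, 17 were covered at the 5' end (1 kb either side) with the combination, 18 with OTX015 and 15 with both. The share over all protein-coding genes was not counted for this window, so these numbers do not set the neighbourhood apart.

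The noncoding genes of the region other than PAN3-AS1 had little acetylation. LOC124903142, beyond the FLT1 5' end, had 0.652 kb with the combination and 0.098 kb with OTX015. LOC124903141, within the FLT1 body, had 0.345 kb and 0, and LOC105370132, which overlaps URAD, had 0.333 kb and 0.315 kb.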
